A study of Mus musculus with 12 samples.

Results

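Mitochondrial ribosomal proteins are encoded in the nucleus, made on cytosolic ribosomes and imported into mitochondria, where they assemble with 2 ribosomal RNAs transcribed from mitochondrial DNA into the mitoribosome. The mitoribosome translates only the mRNAs of the mitochondrial genome, all of which encode core subunits of the respiratory chain and ATP synthase. In heart muscle, which relies on oxidative phosphorylation for most of its ATP, human mutations in several of these genes cause cardiomyopathy. The genes examined here were all those whose symbol is Mrpl or Mrps followed by a number and at most 1 letter, which gave 78 of the 55401 genes in the counts table. Of these, 51 encode proteins of the large subunit (30 with a bacterial homologue and 21 found only in mitochondria), and 26 encode proteins of the small subunit (16 with a bacterial homologue and 10 found only in mitochondria). Mrps18a and Mrps30 are counted in the large subunit, where their proteins are placed in the human mitoribosome. Mrps36 keeps its ribosomal name, but its protein is known as a component of the alpha-ketoglutarate dehydrogenase complex.

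Poly(A)-selected RNA of the left ventricle was sequenced from mice in 4 groups of 3 libraries each: T497A with transverse aortic constriction (TAC), WT with TAC, T497A with sham surgery and WT with sham surgery. T497A mice carry a point mutation of Prkca, the gene of protein kinase C alpha, that exchanges a threonine for alanine. TAC narrows the aorta over a 27-gauge needle and so raises the pressure against which the left ventricle pumps. Surgery was done at 10 weeks of age and tissue was taken 1 week later, at 11 weeks. The labels name cardiomyocyte as the cell type, but the tissue is left ventricle, and all 8 fibroblast markers and all 8 macrophage markers examined had counts in every library (at least 382 and at least 256 reads), next to all 10 cardiomyocyte markers (at least 47114 reads). The labels do not say that the libraries of a group came from separate animals, so p-values measure the spread between these libraries. In such tissue, fewer cells of a type and less RNA per cell cannot be told apart.

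The libraries held 58932759 to 72594085 counts, and the 78 genes together took 177339 to 249535 of them, or 0.282 to 0.360%. Counts alone do not show the Prkca mutation. The T497A sham libraries stood apart in sex-linked genes: Xist, which is transcribed from the inactive X chromosome of females, ran from 160 to 215 CPM (reads scaled to the size of the library) there and stayed below 0.76 CPM in the other 9 libraries. Ddx3y, on the Y chromosome, ran from 0.0999 to 0.396 CPM in T497A sham and from 73.6 to 108 CPM in the others. T497A sham thus had the pattern of females and the other groups that of males. Sex therefore cannot be told apart from genotype or surgery in any comparison that uses T497A sham. Between the sham groups, 104 autosomal genes were called at least 4-fold apart. After TAC, 95 of these 104 differed between the genotypes in the opposite direction (71 of them called). Of the 104, 33 lie on chromosome 11, which also carries Prkca. The share of all tested genes on that chromosome was not counted, so 33 has no background beside it. None of the 104 is a mitochondrial ribosomal protein gene. Whether the genotype labels of all groups stand as given was not tested, so responses to surgery are also given against the sham group of the other genotype, for the counts, the lists and the genes named with them.

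The genes lie on 17 chromosomes, with 11 of them on chromosome 11. Levels are CPM scaled by TMM factors. Of the 78 genes, 77 had enough counts to be tested. The exception, Mrpl53, had 0 to 6 counts per library, and 88% of its exon bases are shared with Gm42688, an overlapping gene on the same strand that had 9 to 32 counts. Exons of 28 genes overlap another gene on the opposite strand, at 20% or more of their bases in 8 genes, among them Mrps25 (69.8%, with Nr2c2) and Mrps34 (63.4%, with Mapk8ip3). The strand setting of the counting is not given, so the values of these genes may hold reads of their neighbours.

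The promoters are shown because most of these genes were lower in WT TAC than in WT sham with TMM scaling, as described further on. Whether the motifs bear on that fall was not tested. For 69 of the 78 genes the window from 250 bases before to 50 bases after the start was found among RefSeq promoters (GRCm38.p6). Motifs known from genes of mitochondrial biogenesis were searched on both strands. The NRF1 motif TGCGCANGC was present in 12 of the 69 promoters (17.4%), beside 4.33% of all 27025 promoters of that length. The ETS motif CCGGAAG, which the factor GABPA binds, was in 25 (36.2%, beside 9.12% of all), and the YY1 motif AAGATGGC in 12 (17.4%, beside 2.88%). The estrogen-related receptor motif TNAAGGTCA was found in none of the 69 (1.26% of all promoters), the E-box CACGTG in 5 (7.25%, beside 7.24%) and the CRE TGACGTCA in 2 (2.90%, beside 1.88%). Base composition also differed, with a median GC content of 58.3% in the 69 promoters and 52.7% in all promoters.

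Below are 6 of these promoters, chosen after their values were seen. Mrpl27, Mrpl55 and Mrps23 are the genes of chromosome 11 that differed between the sham groups. Mrpl42 and Mrpl39 are among the largest falls after TAC. The promoter of Mrpl32 holds the motif of NRF1 on both strands as well as that of YY1. Capitals mark matches to the NRF1, ETS or YY1 motif on either strand. The windows of Mrpl27 and Mrps23 each hold a single ETS match, that of Mrpl42 a single YY1 match, and those of Mrpl55 and Mrpl39 none of the 3 motifs.

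Mrpl27 (chr11:94653541-94653840, plus strand): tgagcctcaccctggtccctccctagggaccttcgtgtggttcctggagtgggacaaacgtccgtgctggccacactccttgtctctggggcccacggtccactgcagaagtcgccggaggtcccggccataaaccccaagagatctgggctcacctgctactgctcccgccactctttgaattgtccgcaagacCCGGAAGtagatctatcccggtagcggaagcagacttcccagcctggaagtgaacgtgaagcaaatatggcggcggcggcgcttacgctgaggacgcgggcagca

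Mrpl55 (chr11:59202236-59202535, plus strand): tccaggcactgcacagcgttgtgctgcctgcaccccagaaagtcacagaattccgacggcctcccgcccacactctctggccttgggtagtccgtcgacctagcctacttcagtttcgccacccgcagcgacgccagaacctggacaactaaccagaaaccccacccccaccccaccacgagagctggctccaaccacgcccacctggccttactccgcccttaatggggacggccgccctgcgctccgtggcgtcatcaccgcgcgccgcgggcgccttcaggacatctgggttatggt

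Mrps23 (chr11:88204138-88204437, plus strand): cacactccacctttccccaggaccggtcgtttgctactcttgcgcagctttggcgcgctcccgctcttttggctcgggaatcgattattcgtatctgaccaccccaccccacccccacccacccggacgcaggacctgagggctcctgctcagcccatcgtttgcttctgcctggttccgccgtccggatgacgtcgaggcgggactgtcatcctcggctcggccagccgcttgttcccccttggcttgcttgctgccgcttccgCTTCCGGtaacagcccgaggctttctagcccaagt

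Mrpl42 (chr10:95501900-95502199, minus strand): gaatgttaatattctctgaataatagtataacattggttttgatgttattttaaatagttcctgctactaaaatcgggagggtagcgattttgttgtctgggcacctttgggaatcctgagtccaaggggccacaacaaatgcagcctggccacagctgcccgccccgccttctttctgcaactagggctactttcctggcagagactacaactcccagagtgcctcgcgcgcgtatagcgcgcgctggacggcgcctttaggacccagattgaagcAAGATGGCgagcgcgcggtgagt

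Mrpl39 (chr16:84735195-84735494, minus strand): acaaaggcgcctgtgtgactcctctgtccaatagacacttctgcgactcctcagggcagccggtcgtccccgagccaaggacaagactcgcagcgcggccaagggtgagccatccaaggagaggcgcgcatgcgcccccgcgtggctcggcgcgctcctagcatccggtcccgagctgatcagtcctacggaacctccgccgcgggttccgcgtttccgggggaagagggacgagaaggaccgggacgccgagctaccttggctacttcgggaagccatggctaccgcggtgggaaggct

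Mrpl32 (chr13:14612988-14613287, minus strand): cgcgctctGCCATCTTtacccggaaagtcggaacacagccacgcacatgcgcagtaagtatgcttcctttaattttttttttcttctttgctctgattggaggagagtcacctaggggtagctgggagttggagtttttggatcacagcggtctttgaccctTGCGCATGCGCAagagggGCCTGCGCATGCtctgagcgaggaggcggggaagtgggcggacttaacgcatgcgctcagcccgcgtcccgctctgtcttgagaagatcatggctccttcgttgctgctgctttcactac

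Levels differed widely among the genes, in an order that was nearly the same in every group. Scaled to exon length (CPM per kilobase, mean of all 12 libraries), the median of the 77 tested genes was 14.5, with quartiles at 7.23 and 26.5, and the highest and lowest differed 52.1-fold. The 5 highest were Mrps21 at 94.4, Mrpl12 at 89.9, Mrps23 at 81.9, Mrpl34 at 69.3 and Mrpl28 at 59.5 CPM per kilobase. Mrpl12 is the protein of the flexible stalk that recruits translation factors. The 5 lowest were Mrpl33 at 3.88, Mrps30 at 3.37, Mrps10 at 1.90, Mrpl23 at 1.81 and Mrpl53 at 0.0487 CPM per kilobase. Exon length counts the bases of all annotated transcripts, so a gene with long minor transcripts, such as Mrpl23 or Mrpl33, is scaled low. The rank correlation of these length-scaled levels between pairs of groups was 0.978 to 0.995 over the 77 genes, as a description.

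In WT hearts, genes of both ribosomal subunits were lower after TAC. The mean log2 CPM of the 77 genes was 4.94, 4.70 and 4.996 in the 3 WT TAC libraries, against 5.39, 5.33 and 5.34 in WT sham. Every WT TAC library lay below every WT sham library, and WT TAC 2 was the lowest of all. With 3 libraries a group an exact test cannot fall below p = 0.1, so single genes rest on edgeR's quasi-likelihood test with Benjamini-Hochberg adjustment over all genes tested, called at an adjusted p under 0.05. By this test 66 of the 77 genes fell, where 24% of all genes were called lower. The count called higher was 0, both with edgeR and with DESeq2 and limma-voom, and 0 also at an unadjusted p under 0.05, where 25.9% of all genes were called higher. In 66 genes every WT TAC library was below every WT sham library, which held for 29% of all genes; the reverse held for none of the 77 and for 31.2% of all genes.

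**Figure D1:**
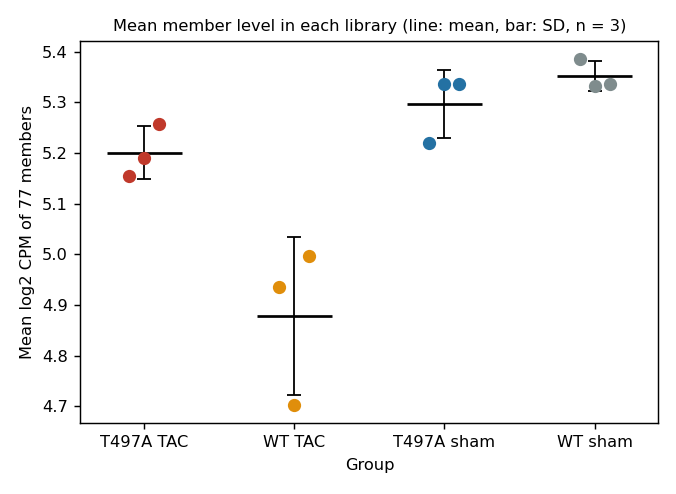
Mean log2 CPM of the 77 tested genes in each library (points), with the mean (line) and SD (bar) of the 3 libraries of a group, with TMM scaling. The T497A TAC libraries lie at 5.16 to 5.26 and the WT TAC libraries at 4.70 to 4.996, against 5.22 to 5.34 in T497A sham and 5.33 to 5.39 in WT sham.

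The median log2 fold change of the 77 genes in WT was -0.48, with quartiles at -0.59 and -0.32, beside 0.03 for all genes tested. The small subunit (22 of 26 fell, median -0.44) and the large subunit (43 of 50 fell, median -0.49) had similar values. So had the proteins with a bacterial homologue (41 of 46 fell, median -0.46) and those found only in mitochondria (24 of 30 fell, median -0.51). Across the 77 genes the log2 fold change had a rank correlation of -0.357 with the mean CPM and of 0.066 with exon length, given as a description, since all values come from the same libraries. Genes with an NRF1, ETS or YY1 match in the promoter fell in 35 of 39 cases (median -0.46), and those without a match in 24 of 29 (median -0.58).

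The size of the fall depends on scaling, because the TMM factors were 1.13 to 1.21 in WT TAC and 0.910 to 0.988 in the other 9 libraries. Library totals alone move the median of all genes by 0.33 on the log2 scale. The median of the mitochondrial ribosomal protein genes is then -0.15 beside an all-gene median of 0.36, with 33 genes called lower and 7 called higher. Counts called with library totals, here and below, are given without the share of all genes called under that scaling.

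The largest falls in WT were those of Mrpl27 and Mrpl55, described with chromosome 11 further on, followed by Mrps35, Mrpl42, Mrpl39 and Mrps28. Mrps35, a mitochondria-specific protein of the small subunit, had 38.6, 30.7 and 45.1 CPM in WT TAC, against 82.6, 75.7 and 75.1 CPM in WT sham. Even the highest WT TAC library was thus far below the lowest WT sham library. Its log2 fold change was -1.03 ± 0.10 (SE; edgeR adjusted p = 2.42e-06).

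Mrpl42, a mitochondria-specific protein of the large subunit, had 133, 99.0 and 141 CPM in WT TAC, against 228, 233 and 230 CPM in WT sham (log2 fold change -0.89 ± 0.11, edgeR adjusted p = 1.27e-05). The sham libraries were nearly equal and the TAC libraries spread more widely, with WT TAC 2 lowest. Mrpl39, also of the large subunit and also without a bacterial homologue, had 41.2, 31.9 and 43.7 CPM in WT TAC, against 66.7, 73.6 and 73.1 CPM in WT sham, without overlap (log2 fold change -0.87 ± 0.09, edgeR adjusted p = 3.67e-06). Mrps28 of the small subunit fell by 0.79 on the log2 scale, to a mean of 20.2 ± 2.89 CPM in WT TAC, against 34.8 ± 1.49 CPM in WT sham (SD, n = 3 each).

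**Figure D2:**
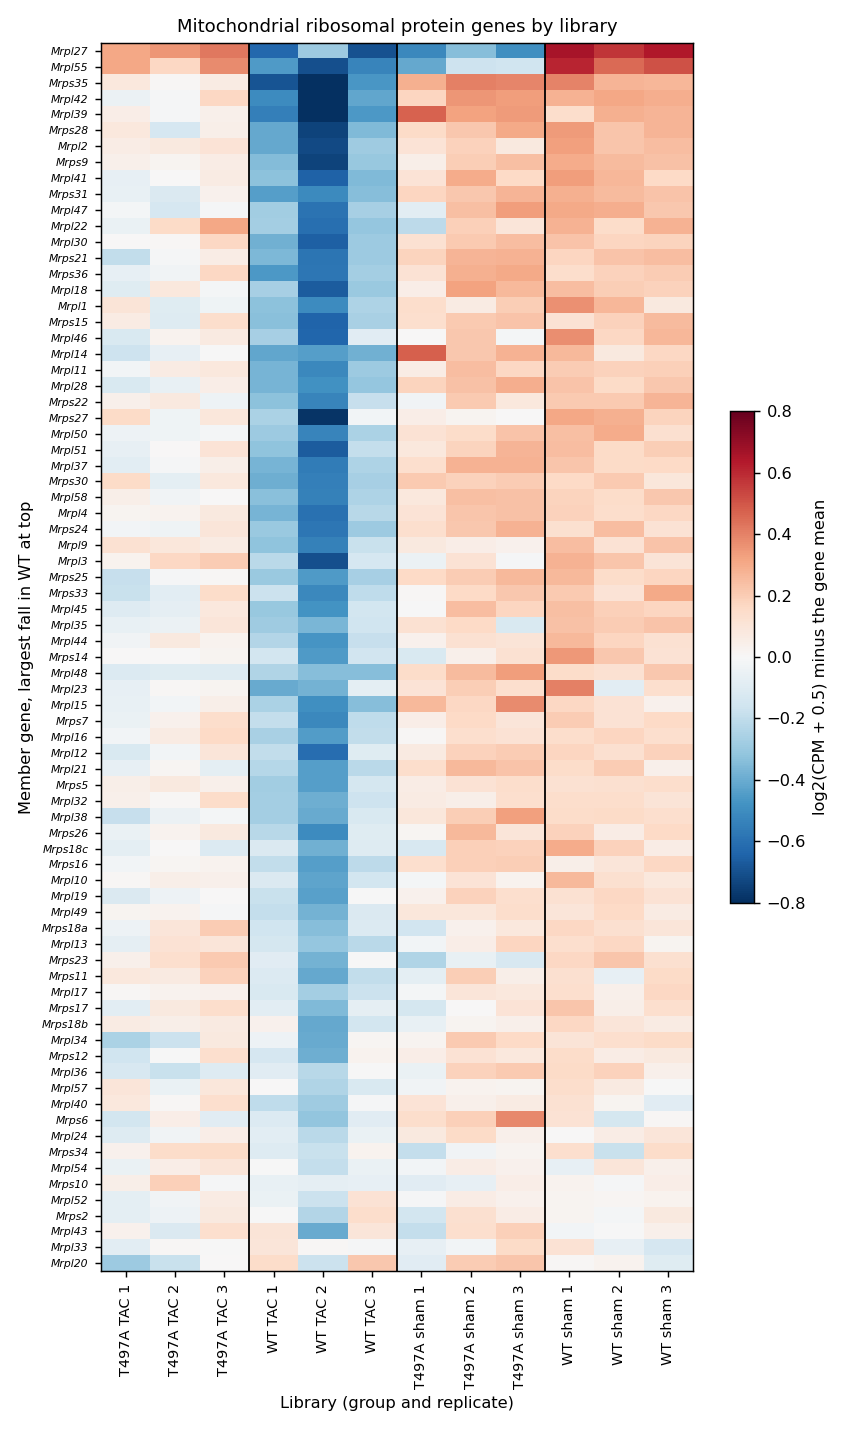
Each row is 1 of the 77 tested genes and each column a library. Colour gives log2(CPM + 0.5) minus the gene's mean over the 12 libraries, with TMM scaling. The WT TAC columns are lowest for most genes, WT TAC 2 most of all; Mrpl27 and Mrpl55 in the top rows are low in WT TAC and in T497A sham.

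The genes given next, with values in WT, were fixed for 1 of 2 reasons. Either human mutations in them cause cardiomyopathy or a combined respiratory chain deficiency, or they have another known role. The share of them that fell was not set apart from that of all 77. Mrpl3, at the core of the large subunit, had 71.1, 50.5 and 75.3 CPM in WT TAC, against 101, 96.8 and 89.0 CPM in WT sham (log2 fold change -0.54 ± 0.12, edgeR adjusted p = 0.0022). Mrpl44, related to ribonuclease III, had 41.0, 34.7 and 42.4 CPM in WT TAC, against 57.7, 54.5 and 52.4 CPM in WT sham (-0.48 ± 0.07). Mrps22 (-0.59), Mrps14 (-0.48), Mrpl12 (-0.45), Mrps16 (-0.39) and Mrps12 (-0.25), the last a protein of the decoding centre, also fell. Mrps2 had a mean of 30.3 ± 4.0 CPM in WT TAC and 31.5 ± 1.04 CPM in WT sham (log2 fold change -0.05, adjusted p = 0.67), and Mrps34 had -0.13 (adjusted p = 0.29), so neither passed. Mrps36 fell by 0.62. With library totals Mrps22 and Mrps36 are still called lower, Mrpl3 (-0.21), Mrpl44 (-0.15), Mrps14 (-0.15), Mrpl12 (-0.12) and Mrps16 (-0.0586) keep a negative value without passing, Mrps12 has 0.0744, and Mrps2 (0.27) is called higher. The call of Mrps12 is also lost without any 1 of 6 libraries (adjusted p up to 0.178, without WT TAC 2).

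A few genes stayed near their sham level in WT. Mrpl20 and Mrpl33 were the only ones whose estimate lay above 0 (log2 fold change 0.10, adjusted p = 0.50, and 0.06, adjusted p = 0.56). Mrpl33 had 30.4, 28.6 and 28.2 CPM in WT TAC, against 30.8, 27.1 and 25.8 CPM in WT sham, with full overlap. With library totals both are called higher (0.42 for Mrpl20 and 0.39 for Mrpl33). A p that misses the threshold does not show that these genes did not respond.

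In T497A hearts, fewer of the genes passed the test after TAC, and their changes were smaller. The mean log2 CPM was 5.16, 5.19 and 5.26 in T497A TAC, against 5.22, 5.34 and 5.34 in T497A sham, so the groups overlapped through T497A sham 1. Of the 77 genes, 14 fell and 3 rose (all genes tested: 11.4% called lower and 12.9% called higher), with a median log2 fold change of -0.12 beside 0.00 for all genes. Every T497A TAC library was below every T497A sham library in 26 genes and above in 5 (19.8% and 20.9% of all genes). The 14 comprised 9 genes of the large subunit and 5 of the small subunit. Leaving out T497A sham 3, T497A TAC 1 or T497A sham 2 left 5, 6 and 8 genes called lower, leaving out WT TAC 2 gave 25, and limma-voom with quality weights called 30.

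The 6 largest falls in T497A were those of Mrpl14, Mrpl39, Mrpl48, Mrps6, Mrps35 and Mrpl38. Mrpl14, which lies at the interface of the 2 subunits, had 31.8, 34.1 and 35.6 CPM in T497A TAC, against 49.9, 41.4 and 43.3 CPM in T497A sham (log2 fold change -0.41 ± 0.08, edgeR adjusted p = 0.0015). No library overlapped. Mrpl39 had 62.7, 59.9 and 62.3 CPM in T497A TAC, against 84.1, 75.7 and 76.6 CPM in T497A sham (-0.36 ± 0.09, adjusted p = 0.013).

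Mrpl48 (-0.35 ± 0.06), Mrps35 (-0.31 ± 0.10), Mrps6 (-0.31 ± 0.10) and Mrpl38 (-0.29 ± 0.08) also fell without overlap. Mrps6 was called lower in T497A and not in WT, where its log2 fold change was -0.17. It had 12.5, 14.5 and 13.03 CPM in T497A TAC, against 15.4, 15.98 and 18.3 CPM in T497A sham. The adjusted p of Mrps35 exceeds 0.05 without any 1 of 10 libraries (up to 0.13, without T497A TAC 2) and that of Mrps6 without any 1 of 6 (up to 0.167, without T497A sham 3). Mrpl38 is not called without T497A sham 3 (0.0796) or T497A TAC 1 (0.0659), and Mrpl39 not without T497A sham 1 (0.0536) or T497A TAC 2 (0.0579).

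The sets called lower under the 2 genotypes, which share no library, had 13 genes in common. These were 19.7% of the 66 that fell in WT and 92.9% of the 14 that fell in T497A; since 66 of the 77 fell in WT, most of any 14 of these genes would be among them. A further 50 fell in WT and were not called in T497A, 3 fell in WT and rose in T497A, and 10 were called in neither.

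**Figure D3:**
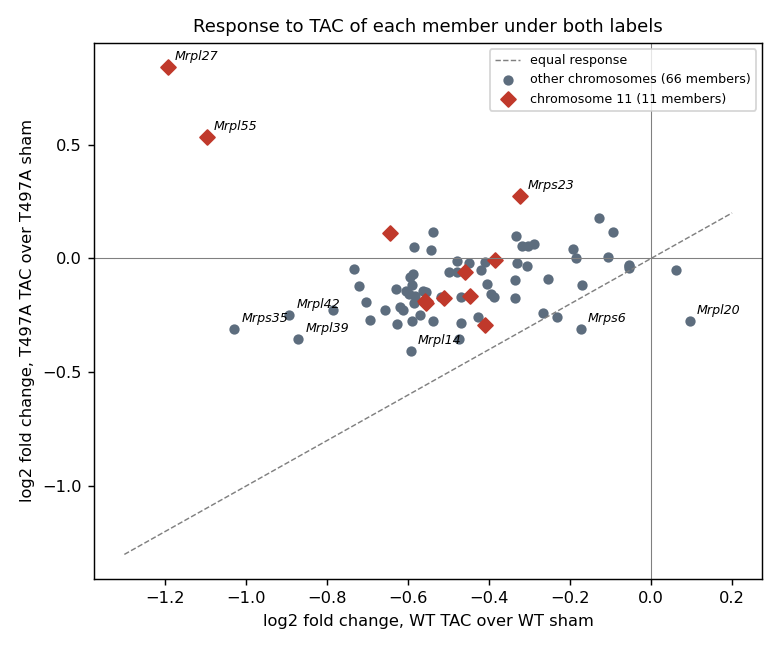
Log2 fold change of each of the 77 genes after TAC in T497A (vertical axis, T497A TAC over T497A sham) against that in WT (horizontal axis, WT TAC over WT sham); diamonds are the 11 genes on chromosome 11 and the broken line marks equal responses. Most points lie to the left of 0 and above the line, and Mrpl27, Mrpl55 and Mrps23 stand highest; library totals without TMM factors move every horizontal value up by about the shift of all genes.

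The size of the response differed between the genotype labels in 45 of the 77 genes. T497A sham, with its female pattern of Xist and Ddx3y, enters this comparison, so genotype and sex cannot be told apart in it. The interaction of genotype and surgery, tested with edgeR, was called above 0 in these 45 (15.3% of all genes were), with a median of 0.37 on the log2 scale beside -0.01 for all genes. The count called below 0 was 0 (1 gene at an unadjusted p under 0.05; 0 with DESeq2 and 1 with limma-voom; 14.2% of all genes were called below 0). After Mrpl27 and Mrpl55, the highest values were those of Mrpl22 (0.755 ± 0.17), Mrps35 (0.72 ± 0.14), Mrpl2 (0.69 ± 0.12) and Mrpl3 (0.65 ± 0.17). Mrpl27, Mrpl55 and Mrpl22 all lie on chromosome 11. Mrpl22 is a protein that lines the exit tunnel, and Mrpl2 one that holds the RNA around the catalytic centre.

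Mrpl2 had 63.4, 64.3 and 65.7 CPM in T497A TAC and 65.9, 69.4 and 64.3 CPM in T497A sham, which overlap, while its 45.8, 36.8 and 49.9 CPM in WT TAC lay below the 76.8, 71.3 and 72.4 CPM in WT sham. Mrpl20 had the lowest interaction, at -0.37 ± 0.16 (adjusted p = 0.094, but 0.0337 without T497A sham 1 and 0.0143 without WT TAC 2). With library totals the all-gene median of the interaction moves by -0.30, the median of the 77 genes is 0.07, and 9 genes are called above 0 and 6 below.

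After TAC, T497A libraries had higher levels than WT libraries in most of the genes. The summed level of all 78 genes was 3289, 3385 and 3570 CPM in T497A TAC, against 2786, 2327 and 2918 CPM in WT TAC, without overlap. Of the 77 genes, 54 were called higher in T497A TAC than in WT TAC (17.8% of all genes), with a median log2 fold change of 0.32 beside -0.02 for all genes. Every T497A TAC library was above every WT TAC library in 57 genes (24.2% of all genes). The count called lower was 0, with edgeR and DESeq2 and at an unadjusted p under 0.05, and 1 with limma-voom (17.9% of all genes were called lower, and 25.3% lay lower in every library). The 54 comprised 36 of 50 genes of the large subunit and 17 of 26 of the small subunit, along with Mrps36.

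Besides Mrpl27 and Mrpl55, the largest differences after TAC were those of Mrps35 (0.77 ± 0.10), Mrpl39 (0.66 ± 0.09), Mrpl42 (0.64 ± 0.11) and Mrpl22 (0.55 ± 0.12). Mrps35 had 66.2, 62.9 and 65.3 CPM in T497A TAC, against 38.6, 30.7 and 45.1 CPM in WT TAC. Mrpl42 had 182, 187 and 211 CPM in T497A TAC, against 133, 99.0 and 141 CPM in WT TAC. Neither gene had overlapping libraries. Among the genes linked to human disease, Mrpl3 (0.47), Mrps22 (0.38), Mrpl44 (0.32), Mrps16 (0.29) and Mrps14 (0.26) were higher in T497A TAC, and Mrpl12 had 0.27 ± 0.10 with an adjusted p of 0.059 (0.0102 without WT TAC 3). The call of Mrps14 is lost without any 1 of 5 libraries (adjusted p up to 0.152, without WT TAC 2). With library totals none of these 5 passes, with values of 0.22 in Mrpl3, 0.13 in Mrps22, 0.0708 in Mrpl44, 0.0413 in Mrps16 and 0.009 in Mrps14. With library totals, which move the all-gene median by -0.25, the median of the 77 genes is 0.07, with 16 genes called higher and 5 called lower.

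Between the sham groups most of the genes were alike in level. The summed level was 3513, 3791 and 3802 CPM in T497A sham, against 3893, 3794 and 3775 CPM in WT sham, and the median log2 fold change of the 77 genes was -0.02 (0.03 with library totals). Only 3 genes were called lower in T497A sham (2.80% of all genes), and the count called higher was 0 (2 genes at an unadjusted p under 0.05; 0 with DESeq2 and with limma-voom; 2.99% of all genes). Every T497A sham library was below every WT sham library in 11 genes and above in 3 (13.5% and 12.9% of all genes). Of the 77 genes, 74 had their lowest group mean in WT TAC, and the highest mean was in WT sham for 44, T497A sham for 27, T497A TAC for 5 and WT TAC for 1.

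The 3 genes that differed between the sham groups, Mrpl27, Mrpl55 and Mrps23, lie on chromosome 11, at 13.3, 48.7 and 19.7 Mb from Prkca. Mrpl27 (ENSMUSG00000024414.13, chromosome 11, 94653767 to 94660089, plus strand, GRCm38) belongs to the large subunit and is the counterpart of a bacterial protein at the catalytic centre. Its levels were 16.8, 17.3 and 18.2 CPM in T497A TAC and 8.499, 10.9 and 8.07 CPM in WT TAC, and 9.24, 10.5 and 9.40 CPM in T497A sham and 21.4, 20.2 and 21.2 CPM in WT sham. T497A TAC and WT sham were thus high, WT TAC and T497A sham low, and no high library overlapped a low one.

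Mrpl55 (ENSMUSG00000036860.14, 59202486 to 59206134, plus strand), the counterpart of bacterial L31 in the large subunit, had 55.5, 50.1 and 58.3 CPM in T497A TAC and 32.5, 27.3 and 30.9 CPM in WT TAC, and 33.5, 39.7 and 39.9 CPM in T497A sham and 68.6, 61.4 and 63.9 CPM in WT sham. Its pattern was the same, again with no overlap between the high and the low groups. Mrps23 (ENSMUSG00000023723.17, 88204388 to 88211507, plus strand), a mitochondria-specific protein of the small subunit, had 130, 139 and 147 CPM in T497A TAC and 119, 97.4 and 127 CPM in WT TAC, and 107, 122 and 116 CPM in T497A sham and 142, 148 and 138 CPM in WT sham. Here the same groups were higher, by a smaller margin. The difference between genotypes also turned direction after TAC in 95 of the 104 autosomal genes described with the sex-linked genes.

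T497A sham lay below WT sham by -1.11 ± 0.11 in Mrpl27 (edgeR adjusted p = 3.80e-05), -0.78 ± 0.09 in Mrpl55 (1.45e-04) and -0.31 ± 0.09 in Mrps23 (0.044) on the log2 scale. T497A TAC lay above WT TAC by 0.93 ± 0.10, 0.85 ± 0.09 and 0.28 ± 0.09 in the same order. The T497A sham libraries also enter the comparison of surgery in T497A, in which these were the 3 genes that rose with TAC, by 0.84 ± 0.10 in Mrpl27, 0.53 ± 0.09 in Mrpl55 and 0.27 ± 0.09 in Mrps23. In WT the same genes fell by 1.19, 1.10 and 0.32. The interaction was 2.03 ± 0.15 in Mrpl27, 1.63 ± 0.12 in Mrpl55 and 0.59 ± 0.12 in Mrps23. The call of Mrps23 between the sham groups is lost without robust estimation (adjusted p = 0.055) and without any 1 of 7 libraries (adjusted p up to 0.155, without WT sham 2); its rise with TAC in T497A is lost without any 1 of 4 (up to 0.111), and its difference after TAC without WT TAC 2 (0.053) or T497A TAC 3 (0.075). With any 1 library left out, Mrpl27 and Mrpl55 were still called between the sham groups. With library totals Mrps23 had 0.0059 in WT, so its fall there rests on the TMM scaling.

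**Figure D4:**
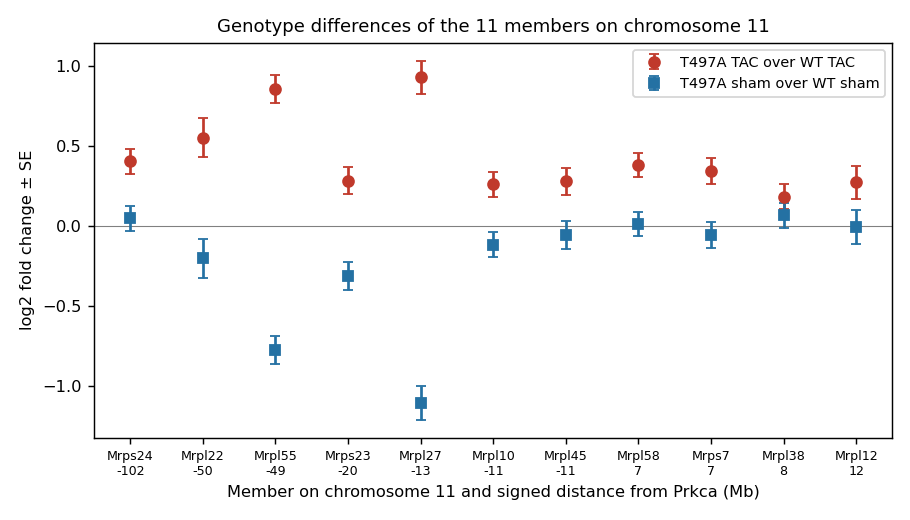
Log2 fold change of T497A over WT after TAC (circles) and after sham surgery (squares), with standard errors, for the 11 genes on chromosome 11, ordered by position with the distance from Prkca in Mb. Mrpl55, Mrps23 and Mrpl27 lie below 0 after sham surgery and above 0 after TAC; of the other 8 genes none was called between the sham groups.

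Set against the sham group of the other genotype, the 3 genes changed less. WT TAC differed from T497A sham by -0.09 in Mrpl27 and -0.01 in Mrps23, neither called, and by -0.32 in Mrpl55, which was called. T497A TAC differed from WT sham by -0.27, -0.24 and -0.04 in Mrpl27, Mrpl55 and Mrps23, none called. Of the other 8 genes of chromosome 11 the count called between the sham groups was 0 with edgeR, and 0 at an unadjusted p under 0.05. Mrpl22, which lies 49.8 Mb from Prkca on the same side as Mrpl55, had a log2 difference of -0.20 there (adjusted p = 0.39).

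Away from chromosome 11, 66 genes were tested. Of these, 55 fell with TAC in WT, 13 fell in T497A, 45 were higher in T497A TAC than in WT TAC, and 37 had an interaction above 0. Between the sham groups the count called was 0 of 66 with edgeR (3 at an unadjusted p under 0.05, 2 of them higher). Against the sham group of the other genotype, over all 77 genes, 62 were lower in WT TAC than in T497A sham (median -0.40, with 24.6% of all genes called lower), and 5 were lower in T497A TAC than in WT sham (median -0.15, with 3.9% of all genes called lower); none was higher in either comparison, where 25.6% and 6.12% of all genes were. Among the genes named above, Mrps35 (-1.07), Mrpl39 (-1.02), Mrpl42 (-0.89) and Mrps28 (-0.73) were called lower in WT TAC against T497A sham. So were, of the genes fixed for disease or another known role, Mrps16 (-0.46), Mrps22 (-0.44), Mrpl12 (-0.44), Mrpl44 (-0.38), Mrpl3 (-0.35), Mrps14 (-0.27) and Mrps12 (-0.24). Of the 6 largest falls in T497A, Mrpl48 (-0.27) was called lower in T497A TAC against WT sham, while Mrps35 (-0.26), Mrpl14 (-0.25), Mrpl38 (-0.23), Mrpl39 (-0.21) and Mrps6 (-0.06) did not pass. Against the 2 sham groups, WT TAC was thus called lower in 66 and 62 genes, and T497A TAC in 14 and 5.

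Partners of these proteins also changed. Both mitochondrial rRNAs fell in WT: mt-Rnr2, the rRNA of the large subunit, had 3988, 2284 and 4461 CPM in WT TAC, against 11336, 11840 and 9269 CPM in WT sham (log2 fold change -1.60 ± 0.21), and mt-Rnr1, that of the small subunit, changed by -1.33 ± 0.23. Against T497A sham, WT TAC had -1.51 in mt-Rnr2 and -1.11 in mt-Rnr1, both called. Their levels are those left after poly(A) selection. In T497A neither passed (mt-Rnr2 with 8093, 8618 and 10045 CPM in T497A TAC, against 9309, 9888 and 11367 CPM in T497A sham), and the interaction was 1.40 ± 0.29 in mt-Rnr2 and 1.41 ± 0.33 in mt-Rnr1. The 5 mitoribosomal proteins named outside the Mrp scheme (Dap3, Ptcd3, Aurkaip1, Chchd1 and Gadd45gip1) all fell in WT, with a median of -0.64, among them Ptcd3 by 1.02 and Dap3 by 0.80, and all 5 were higher in T497A TAC than in WT TAC.

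Genes that build or use the mitoribosome were lower in WT TAC as well, where 24% of all genes were called lower and 25.9% higher. Of 33 assembly factors 29 fell (median -0.58), including the GTPase Mtg2 by 0.93 and the protease subunit Spg7 by 0.60. Of 16 translation factors 13 fell (median -0.55), including Gfm1, an elongation factor, by 0.71 and Lrpprc, which stabilises mitochondrial mRNAs, by 0.95. Of 22 tRNA synthetases and related enzymes 19 fell and 1 rose (median -0.56), with Gatb at -0.93 and Iars2 at -0.60. Of 20 genes that copy or transcribe mitochondrial DNA or process its RNA 15 fell (median -0.43). Among them were the RNA polymerase Polrmt, by 0.63, and Tfam, which packages mitochondrial DNA, by 0.39.

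The mRNAs that the mitoribosome translates, and those of the nuclear subunits that join their products, were also lower in WT TAC. Of the 13 mRNAs of the mitochondrial genome 11 fell in WT (median -1.10, with mt-Nd5 at -1.12), and all 73 nuclear subunits of the respiratory chain and ATP synthase fell (median -0.77, with Sdha at -1.15 and Cox7a1 at -1.42). Cytosolic ribosomal proteins did not move as a group: 12 of 79 fell and 15 rose (median 0.02), and Rpl3 was among those that rose, by 0.84. With library totals 67 of the 79 are called higher and 2 lower (median 0.35, beside 0.36 for all genes). Of 12 regulators of mitochondrial biogenesis 7 fell and 1 rose; the coactivator Ppargc1a fell by 1.16, the receptor Esrra by 0.65 and Ppara by 1.10. With library totals the medians in WT stay below 0 in the lists that follow. They are -0.78 for the mRNAs of the mitochondrial genome (10 called lower) and -0.44 for the nuclear respiratory chain (68 called lower). For the assembly factors the median is -0.25 (15 lower and 2 higher) and for the translation factors -0.22 (9 lower). For the tRNA synthetases it is -0.23 (14 lower and 2 higher). For the genes that copy or transcribe mitochondrial DNA or process its RNA it is -0.10 (7 lower and 2 higher). Among the regulators 5 are called lower and 5 higher, and Tfam (-0.0615) no longer passes.

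**Figure D5:**
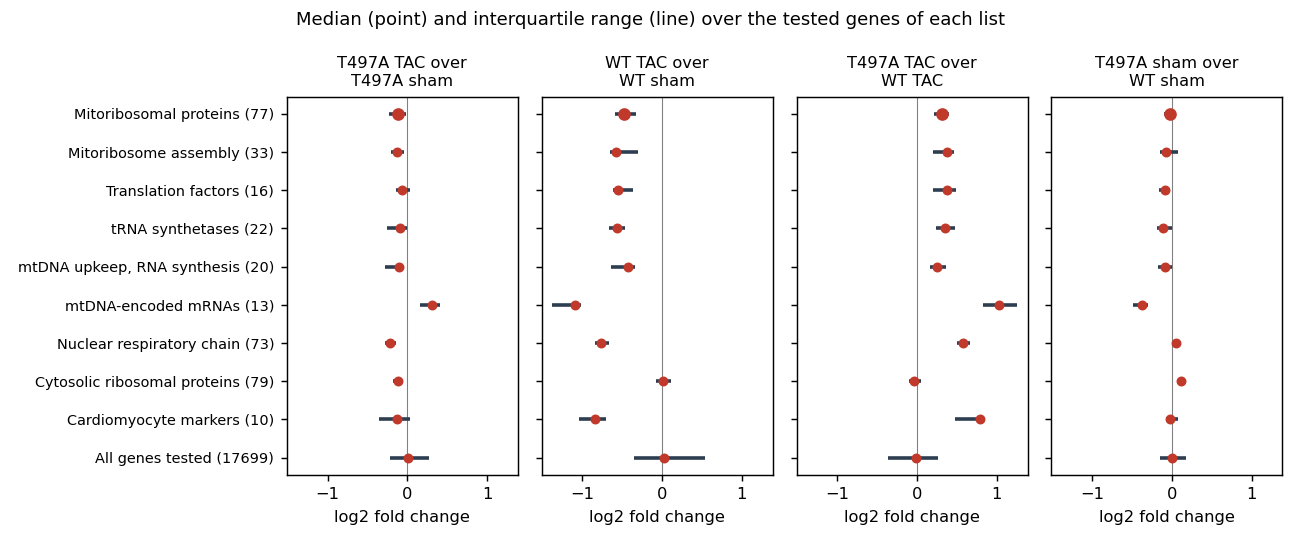
Median (point) and interquartile range (line) of the log2 fold change over the tested genes of each list, in 4 comparisons, with TMM scaling; numbers in brackets are genes tested. In WT TAC over WT sham the median of the mitochondrial ribosomal proteins is -0.48, that of the mRNAs of the mitochondrial genome -1.10 and that of cytosolic ribosomal proteins 0.02; library totals move the median of all genes in this panel by 0.33.

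In T497A these lists had smaller medians after TAC: -0.13 for assembly factors (5 fell, 1 rose), -0.07 for translation factors (1 fell), -0.09 for tRNA synthetases (4 fell, 1 rose) and -0.22 for the nuclear respiratory chain (26 of 73 fell). Of the mRNAs of the mitochondrial genome none was called in T497A by edgeR (3 higher at an unadjusted p under 0.05, and 3 called higher with library totals), with a median of 0.31. In cytosolic ribosomal proteins 27 of 79 fell and 3 rose, with a median of -0.12. Among all genes tested, 11.4% were called lower and 12.9% higher after TAC in T497A. Between the TAC groups, 17.8% of all genes were called higher in T497A. T497A TAC was higher than WT TAC in 20 of 33 assembly factors, 10 of 16 translation factors, 16 of 22 tRNA synthetases and 72 of 73 subunits of the respiratory chain. With library totals these counts are 8, 5, 7 and 66 in the same order, with every median above 0. Of the 12 regulators of mitochondrial biogenesis 4 fell and 2 rose in T497A. Ppargc1a fell in T497A too, by 1.17, with an interaction of -0.01. It was also called higher in T497A TAC than in WT TAC. That call is lost with library totals (0.22) and without any 1 of 3 libraries (edgeR adjusted p up to 0.115, without WT TAC 2).

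Against the sham group of the other genotype, the lists gave other values in both TAC groups, by amounts that differed between the lists. T497A TAC against WT sham had a median of -0.10 in the mRNAs of the mitochondrial genome, with 0 of 13 called by edgeR (0 at an unadjusted p under 0.05), so the sign of that median depends on the sham group used. Of the cytosolic ribosomal proteins 0 of 79 were called in either direction by edgeR (5 higher and 6 lower at an unadjusted p under 0.05; median -0.0058), and of the nuclear respiratory chain 4 of 73 were lower (median -0.17). Lower in this comparison were also 3 of 33 assembly factors (median -0.17), 1 of 16 translation factors (-0.16) and 6 of 22 tRNA synthetases (-0.20). So were 3 of 20 genes that copy or transcribe mitochondrial DNA or process its RNA (-0.19). Among all genes tested, 3.9% were called lower and 6.12% higher in this comparison.

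WT TAC against T497A sham had 9 of 13 mRNAs of the mitochondrial genome lower (median -0.78) and all 73 nuclear subunits lower (median -0.81). Lower were also 27 of 33 assembly factors (median -0.48), 13 of 16 translation factors (-0.40) and 18 of 22 tRNA synthetases with 1 higher (-0.49). So were 13 of 20 genes that copy or transcribe mitochondrial DNA or process its RNA (-0.39), and 27 of 79 cytosolic ribosomal proteins with 4 higher (-0.08). In this comparison 24.6% of all genes were called lower and 25.6% higher. Tfam had -0.17 there and did not pass. Ppargc1a was called lower in both comparisons, with -0.69 in T497A TAC and -1.64 in WT TAC.

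Markers of fibroblasts and macrophages moved with the same groups. Fibroblast markers summed to 1940 to 3000 CPM in T497A TAC and 8830 to 18540 CPM in WT TAC, against 1155 to 1462 CPM in T497A sham and 1261 to 1515 CPM in WT sham. In WT all 8 rose after TAC, in T497A 4 did, and all 8 were lower in T497A TAC than in WT TAC. Of all genes, 25.9% were called higher after TAC in WT and 12.9% in T497A, and 17.9% lower between the TAC groups. Macrophage markers summed to 370 to 398 CPM in T497A TAC and 543 to 894 CPM in WT TAC, against 293 to 345 CPM in T497A sham and 260 to 312 CPM in WT sham, with all 8 risen in WT and 2 in T497A. Against the other sham group, all 8 fibroblast and all 8 macrophage markers were higher in WT TAC (25.6% of all genes). In T497A TAC 2 and 1 of them were (6.12% of all genes).

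Cell cycle genes rose in both genotypes, 6 of 6 each, with a median log2 fold change of 2.90 in T497A and 2.61 in WT. Of all genes, 12.9% were called higher and 11.4% lower after TAC in T497A, and 25.9% and 24% in WT. Atrial and adipocyte markers were lower after TAC in T497A, with 3 of 4 tested genes called lower in each list and medians of -3.60 and -3.71 (Nppa, also an atrial marker, rose), and in WT no gene of either list was called lower by edgeR (0 at an unadjusted p under 0.05). The markers called lower stood highest in T497A sham 3: Myl7, a myosin light chain of the atria, had 261 CPM there, against 63.6 and 74.4 CPM in the other T497A sham libraries. Against WT sham no gene of either list was called lower in T497A TAC by edgeR (1 at an unadjusted p under 0.05).

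The 10 cardiomyocyte markers summed to 71182 to 76566 CPM in T497A TAC and 43354 to 50537 CPM in WT TAC, against 80900 to 83324 CPM in T497A sham and 76435 to 84476 CPM in WT sham. In WT 8 of the 10 fell (median -0.84), where 24% of all genes were called lower. In T497A 4 fell and 1 rose (median -0.13), beside 11.4% and 12.9% of all genes. Between the TAC groups 9 of 10 were higher in T497A TAC (median 0.79), beside 17.8% of all genes. Against the other sham group, 8 of 10 were lower in WT TAC (24.6% of all genes). In T497A TAC 1 was lower and 1 higher against WT sham (3.9% and 6.12% of all genes). WT TAC 2, the library with the lowest levels of mitochondrial ribosomal proteins, also had the lowest share of mitochondrial counts, 9.67%, against 13.4 and 14.7% in the other WT TAC libraries and 15.97 to 20.99% in the 9 libraries of the other groups. The part of these markers in the fall of the mitochondrial ribosomal proteins was not tested.

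Prkca itself was measured at 50.3, 44.7 and 43.7 CPM in T497A TAC and 49.2, 50.7 and 51.0 CPM in WT TAC, and at 35.7, 34.7 and 31.1 CPM in T497A sham and 47.4, 43.5 and 42.2 CPM in WT sham. It was lower in T497A sham than in WT sham by 0.39 on the log2 scale (edgeR adjusted p = 0.0056), and rose with TAC by 0.45 in T497A and by 0.18 in WT (adjusted p = 0.049, and up to 0.172 without any 1 of 8 libraries, highest without WT sham 3). Against the other sham group, Prkca had 0.06 in T497A TAC (adjusted p = 0.67) and was higher by 0.57 in WT TAC.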

How the data were processed

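Per the labels' protocols, RNeasy columns yielded the RNA, the KAPA mRNA HyperPrep kit the libraries, and a NextSeq2000 the single-end reads. The tools, per the submitters' processing notes, were Trim Galore 0.6.4, STAR 2.7.3a, featureCounts (Subread 1.6.3) and limma 3.50.3, with a mouse and a human build named without their roles. Annotation release, strand setting and treatment of multiply mapping reads were not given in the sources used here. The deposited table holds whole-number read counts of each gene, not normalized, and all 12 columns were used. The column names of 2 T497A sham libraries lack the T and were matched by genotype, surgery and number.

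Genes were filtered with filterByExpr (17699 kept), scaled with TMM and tested with edgeR 4.0.16 (quasi-likelihood, robust; R 4.3.3) in a single fit of 12 libraries with 4 group means. Calls needed an adjusted p (Benjamini-Hochberg, across every gene tested per comparison) under 0.05. Log2 CPM used a prior count of 2 and errors of fold changes are standard errors. Coordinates and exon lengths come from GENCODE M21 on GRCm38; all 78 IDs matched with their version. Named are up to 6 called genes with the largest rise and 6 with the largest fall per comparison, the 5 highest and 5 lowest by length-scaled level, 10 genes fixed for a known role, fixed partner genes, and up to 3 called genes with the smallest p of each list. Mrpl32, Mrps25 and any other gene outside this rule were chosen after their values were seen. The genes and lists were chosen with earlier results of these data known. Alternatives were DESeq2 1.42.0 (size factors, and its test), limma-voom 3.58.1, library totals, other filters, fewer groups, the replicate number as a block, and each library left out.

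Replicate numbers do not mark a pairing: the deviations of same-numbered libraries correlated at -0.080 to 0.040. Libraries of a group differed by more than counting error.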

Additional observations from a re-analysis of the deposited data

Results flagged for a closer look

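The response to TAC differed between the genotype labels in the named genes that follow. In them the interaction of genotype and surgery was called by edgeR's test, with adjusted p under 0.05. Whether the genotype labels of all groups stand as given was not tested. Values are the log2 fold change in T497A minus that in WT. The T497A sham libraries, which alone were high in Xist, enter all of these values, so genotype and sex cannot be told apart in them. The interaction was 2.03 in Mrpl27, 1.63 in Mrpl55 and 0.59 in Mrps23, the 3 genes of chromosome 11 also called between the sham groups.

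In the other named mitochondrial ribosomal protein genes it was 0.755 in Mrpl22, 0.72 in Mrps35, 0.69 in Mrpl2, 0.65 in Mrpl3, 0.52 in Mrps22, 0.47 in Mrps14, 0.42 in Mrps30, 0.42 in Mrpl44, 0.40 in Mrps36, 0.34 in Mrps21 and 0.32 in Mrpl28. Every one of them had fallen in WT. In the mitochondrial rRNAs it was 1.41 in mt-Rnr1 and 1.40 in mt-Rnr2, and among the fixed partner genes 0.78 in Lrpprc, 0.66 in Polrmt and 0.43 in Tfam. In Mrps14, Mrps22, Mrpl28, Mrpl44, Mrps21, Mrps30, Mrps36, Mrpl3 and Tfam (0.14) the interaction is not called with library totals without TMM factors. With 1 library left out, it is not called in Mrps21 for 6 of the 12 libraries (adjusted p up to 0.0875, without T497A TAC 3) and in Mrps36 for 4 (up to 0.0627, without T497A TAC 3).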

How the results depend on the processing

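Over the named mitochondrial ribosomal protein genes and their comparisons, 1560 of the recomputed values kept their direction and their side of the threshold, 111 kept the direction without passing, 12 came to pass and 11 changed sign. Library totals without TMM factors changed most. They gave 7 genes called higher and 33 lower for TAC in WT, 16 higher and 5 lower for T497A against WT after TAC, and 9 above and 6 below 0 for the interaction; the median between the sham groups turned to 0.0296. In WT they turned the sign of Mrps2 (0.27), Mrps10 (0.24), Mrps34 (0.20), Mrps12 (0.0744), Mrpl34 (0.0611) and Mrps23 (0.0059), and that of the interaction of Gabpa (-0.0192). Limma-voom called 30 genes lower for TAC in T497A, and 1 lower each in T497A against WT after TAC and in the interaction. The DESeq2 test called 1697 genes of all between the sham groups, against 1024. T497A TAC against WT sham gave 0 genes higher, 5 lower and 1773 of all genes called, and turned Mrpl27 (-0.27), Mrpl55 (-0.24) and Mrps23 (-0.0415); WT TAC against T497A sham turned Mrpl20 (-0.0457). The cause of these changes was not tested.

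With each library left out in turn, the log2 fold change of Mrps2 in WT ran from -0.1482 to 0.0421 (the highest without WT TAC 2) and the median between the sham groups from -0.0444 to 0.013. The genes called lower for TAC in WT numbered 59 to 66 (all genes 7922 to 8994), and for TAC in T497A 5 to 25 with 2 to 3 higher (all genes 2840 to 5152, the lowest without T497A TAC 2). Between the sham groups 2 to 4 were lower (all genes 505 to 1607, the highest without WT TAC 2), after TAC 42 to 59 were higher and 0 to 1 lower in T497A (5266 to 6491), and the interaction was above 0 in 33 to 50 and below in 0 to 1 (4394 to 5283). With the replicate number as a replicate block, 65 genes fell in WT, 13 fell and 3 rose in T497A, 2 were lower between the sham groups, 54 were higher after TAC and 42 had an interaction above 0; the block does not mark a pairing here, and it took the adjusted p of Mrps23 between the sham groups to 0.063, of Mrps6 in T497A to 0.052 and of Mrps14 after TAC to 0.050.

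With 58932759 counts or more per library, only Mrpl53 went without a test, and 88% of its exon bases are shared with Gm42688. Genes that share exons with a neighbour on either strand, and the 3 with named pseudogenes, depend on how reads were counted, which is not given.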
